A study of Mus musculus with 22 samples.

Results

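Slc4a9, Tppp3, Atp6v0d2, Bex4 and Pde6c are 5 mouse genes outside the usual lists of liver metabolism. They were chosen by measured levels, because their transcripts were scarce in wild-type livers and abundant in Slc10a1 knockout livers at 4 weeks of age, so the 4-week contrast chose them and is given below as a description. They are 5 of the 47729 genes counted. Slc10a1 encodes NTCP, the sodium-coupled carrier by which hepatocytes clear bile salts from the portal circulation, and the series concerns the sulfation of bile acids when NTCP is missing. RNA sequencing of poly(A) RNA covered livers of male C57BL/6 mice in 6 groups. These were Slc10a1-/- (KO) and wild type (WT) at 4 weeks (3 KO, 3 WT), at 8 weeks (6 KO, 4 WT) and at 20 months (3 KO, 3 WT), with no treatment given in the labels. The labels describe neither which part of Slc10a1 was deleted nor how litters or cages were shared, so p-values measure the spread between these samples.

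The 5 proteins do unrelated work and are best known outside the liver. Slc4a9 (AE4) exchanges anions across the membrane of bicarbonate-secreting intercalated cells in the kidney collecting duct. Atp6v0d2 is a form of the d subunit that joins the membrane and catalytic parts of the V-ATPase, the proton pump that acidifies lysosomes and the bone surface under osteoclasts. Tppp3 belongs to a family of proteins that bind and bundle microtubules. Pde6c is the catalytic subunit of the cone photoreceptor phosphodiesterase, which breaks down cyclic GMP when light is detected. Bex4 belongs to the small, X-linked BEX proteins, named for their expression in brain. In mouse liver a large set of genes differs between the sexes under the control of growth hormone secretion, and Atp6v0d2 is itself known as a gene with higher expression in female liver.

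Each 4-week liver gave 5496425 to 6956124 counts in genes, each 8-week liver 18950112 to 26066897, and each liver of 20 months 18032355 to 26789350. The 4-week libraries were read as pairs and the others as single reads, so levels set side by side across ages cannot be told apart from that difference. Levels are in CPM, the counts of a gene relative to the scaled library total. Slc10a1 separated KO from WT livers at each age without overlap (107 to 253 CPM in KO against 591 to 701 CPM in WT at 4 weeks, 49.4 to 93.8 CPM in KO against 435 to 470 CPM in WT at 8 weeks, 92.3 to 103 CPM in KO against 154 to 370 CPM in WT at 20 months). All 22 libraries had the Y-linked transcript Ddx3y (484 to 3499 counts) and 1 to 21 counts of Xist, as male tissue does. Hepatocyte markers summed to 81090 CPM or more in every library. WT library 1 of 8 weeks stood apart: it held 9401 counts (322 CPM) of 7 kidney genes chosen after their values were seen, such as Kap with 4486 counts and Slc34a1 with 3189, against 0 to 0.955 CPM in the other 21 libraries. Tests of the 5 genes at 8 weeks are therefore given with and without it.

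At 4 weeks each of the 5 genes was higher in all 3 KO libraries than in any WT library, as its choice required, while 5.17% of the 11144 genes tested were called higher in KO at this age, 5.6% lower and 10.8% in either direction. In bulk liver RNA, more cells of a type and more RNA per cell cannot be told apart. The description "near absent in WT" fitted Slc4a9 and Tppp3, with 1 and 2 counts over the 3 WT libraries. Atp6v0d2, Bex4 and Pde6c were low but counted in every WT library, with 31, 22 and 43 counts in all. Per kilobase of annotated exon, mean KO levels at 4 weeks were 16.7 CPM for Pde6c, 12.5 for Atp6v0d2, 12.3 for Bex4, 10.97 for Tppp3 and 2.41 for Slc4a9.

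**Figure D1:**
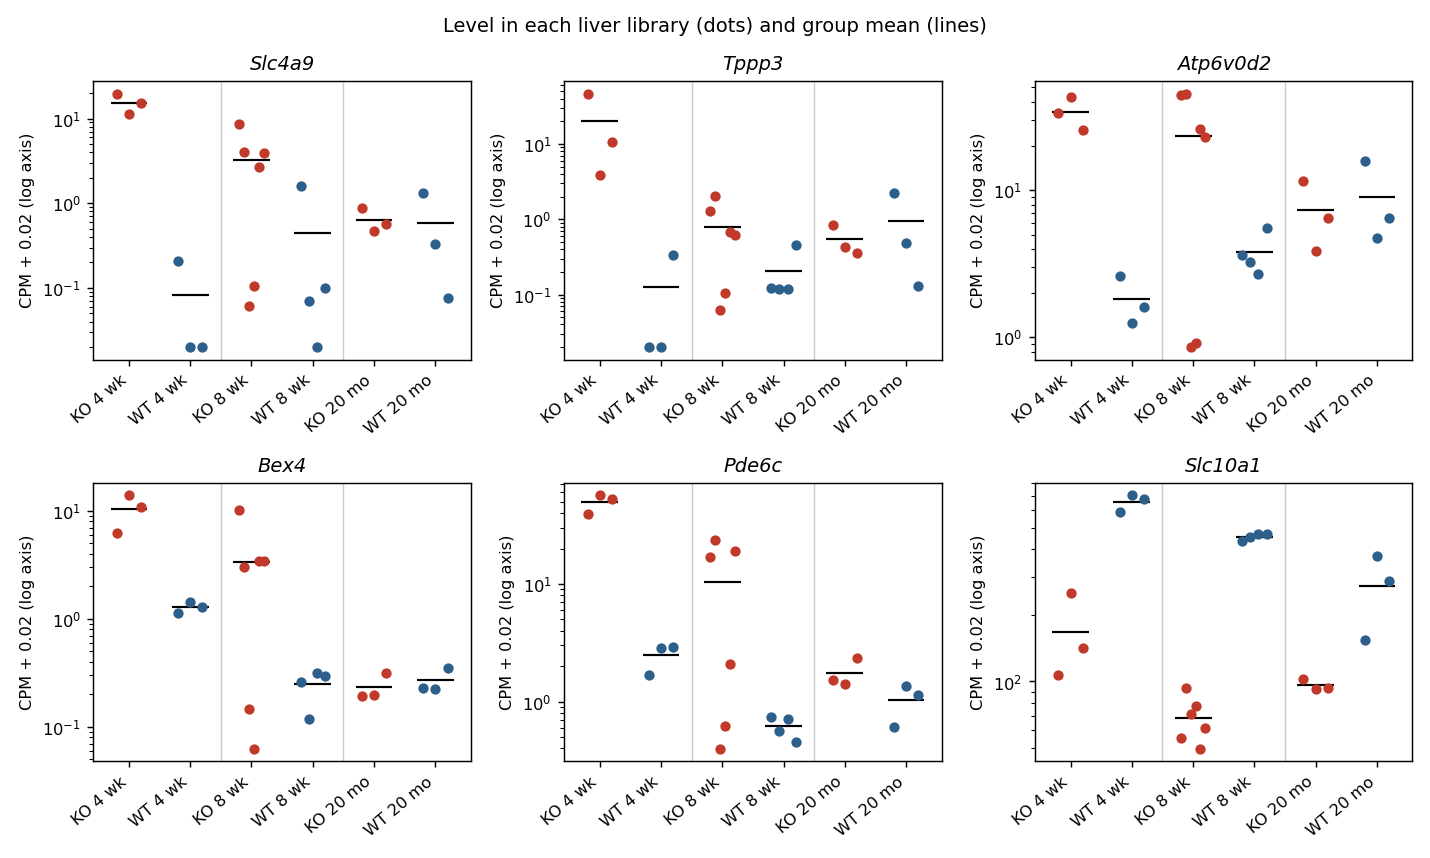
Level of each of the 5 genes and of Slc10a1 in every liver library (dots, CPM + 0.02 on a log axis), with the mean of each group (line), KO in red and WT in blue at 4 weeks, 8 weeks and 20 months. All KO dots lie above all WT dots at 4 weeks in the 5 genes, 4 of 6 do at 8 weeks, and at 20 months this holds for Pde6c alone.

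Slc4a9 (ENSMUSG00000024485, GRCm38 chr18:36528147-36556273, plus strand) is the anion exchanger. At 4 weeks its levels were 19.7, 11.5 and 15.2 CPM in the 3 KO livers, against 0.186, 0 and 0 CPM in the 3 WT livers. No KO liver came near a WT liver. The counts were 245 in KO and 1 in WT.

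At 8 weeks the 6 KO livers spread from 0.0419 to 8.72 CPM for Slc4a9 with a median of 3.31, against 1.58, 0.0496, 0 and 0.0792 CPM in the 4 WT livers. KO libraries 1, 2, 5 and 6 lay above all WT livers, while KO libraries 3 and 4 (0.0419 and 0.0855 CPM) were within the WT range. The highest WT liver, library 1, is the one with kidney transcripts, and Slc4a9 is a gene of the kidney. It also held all 13 markers of renal intercalated cells (18.2 CPM in sum, against 0.603 to 15.1 CPM in the other 21 libraries, where the highest sums came with Slc4a1, which red cells also express). With that library the log2 fold change was 2.81 (SE 1.36, edgeR adjusted p = 0.485), and without it 6.03 (SE 1.84, edgeR adjusted p = 0.644), with 430 counts in KO against 3 in WT and a ratio of 67.2 (95% counting interval 22.9 to 327, counting error alone). DESeq2, which did not call Slc4a9 with that library (2.91, adjusted p = 0.452), called it without (6.24, SE 1.63, adjusted p = 0.0424).

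At 20 months Slc4a9 had 0.868, 0.447 and 0.552 CPM in KO, against 1.32, 0.310 and 0.0556 CPM in WT. All 3 KO values lay inside the WT range, and the log2 fold change was 0.08 (SE 0.87, 95% interval -1.98 to 2.13, edgeR adjusted p = 0.992). Its sign turned when WT library 2 or 3 or KO library 1 was left out. By mean level the groups ran in the order KO 4 weeks, KO 8 weeks, KO 20 months, WT 20 months, WT 8 weeks and WT 4 weeks, and KO 4 weeks stood above all others, while each later pair of neighbours overlapped. The 13 intercalated cell markers summed to 4.87, 0.603 and 0.854 CPM in KO livers of 4 weeks, against 0.931, 3.51 and 1.91 CPM in WT. At 8 weeks they summed to 15.1, 9.31, 2.91 and 11.6 CPM in KO libraries 1, 2, 5 and 6 and to 1.09 and 1.88 CPM in KO libraries 3 and 4, against 18.2 CPM in WT library 1 and 1.79 to 3.09 CPM in the other WT livers. Slc4a1, the red cell and kidney anion exchanger, made up most of the high KO sums (14.1, 7.95 and 10.1 CPM in libraries 1, 2 and 6) and did not pass at 8 weeks (log2 fold change 1.83, edgeR adjusted p = 0.483). Atp6v0a4, a V-ATPase subunit of these cells, had 2.86, 0.402 and 0.427 CPM in KO livers of 4 weeks, against 0, 0.702 and 0 CPM in WT. Dmrt2 and Slc26a4 had at most 2 counts in any KO liver of 4 weeks. Of the other 9, Foxi1, Atp6v1g3, Aqp6, Rhcg and Oxgr1 had 0 counts in all KO livers of 4 and 8 weeks, and Atp6v1b1, Atp6v1c2, Insrr and Hepacam2 had 0 counts in those of 4 weeks. The part of intercalated cells in the levels of Slc4a9 was not tested. Of 11 other bicarbonate and anion transport genes tested at 4 weeks, 0 rose and 1 fell. The one that fell was Car5a, the mitochondrial carbonic anhydrase of liver (log2 fold change -1.55, SE 0.41, edgeR adjusted p = 0.0445, lost without WT library 2 or 3 or KO library 3). None of 15 passed at 8 weeks or at 20 months in edgeR.

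Atp6v0d2 (ENSMUSG00000028238, GRCm38 chr4:19876841-19922605, minus strand) had 33.4, 42.8 and 25.6 CPM in KO livers of 4 weeks, against 2.61, 1.23 and 1.59 CPM in WT livers. The lowest KO liver stood well above the highest WT liver, and the mean was 33.96 ± 8.62 CPM in KO and 1.81 ± 0.714 CPM in WT (SD, n = 3 each). At 8 weeks KO livers ran from 0.838 to 45.3 CPM with a median of 24.5, against 3.63, 3.22, 2.69 and 5.51 CPM in WT. KO libraries 1, 2, 5 and 6 had 44.3, 45.3, 26.2 and 22.9 CPM, within or near the range of the 4-week KO livers. KO libraries 3 and 4, at 0.838 and 0.898 CPM, lay below every WT liver. The log2 fold change at 8 weeks was 2.67 (SE 1.03, 95% interval 0.39 to 4.95, edgeR adjusted p = 0.474) and 2.66 without WT library 1.

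At 20 months Atp6v0d2 had 11.6, 3.84 and 6.45 CPM in KO, against 15.9, 4.75 and 6.44 CPM in WT. The groups overlapped (log2 fold change -0.30, SE 0.56, edgeR adjusted p = 0.926), and the sign turned without WT library 1 or KO library 2. By mean the order was KO 4 weeks, KO 8 weeks, WT 20 months, KO 20 months, WT 8 weeks and WT 4 weeks, and every neighbouring pair overlapped except the last. WT means were 1.81 CPM at 4 weeks, 3.76 CPM at 8 weeks and 9.03 CPM at 20 months. The ubiquitous form of the same subunit, Atp6v0d1, averaged 46.3 CPM in KO and 53.7 CPM in WT at 4 weeks (log2 fold change -0.18, SE 0.23, edgeR adjusted p = 0.649), 50.7 and 55.1 CPM in KO and WT at 8 weeks, and 48.9 and 55.4 CPM in KO and WT at 20 months. Of 17 other V-ATPase subunits tested at 4 weeks, 0 rose and 1 fell, Atp6v0b of the membrane part (log2 fold change -0.98, SE 0.23, edgeR adjusted p = 0.0338). That call was lost in 5 of 6 leave-outs (each WT library, KO library 2 and KO library 3). None of 19 subunits passed at the later ages.

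Osteoclasts and macrophages also express Atp6v0d2. All 12 macrophage markers were counted in every library. Their sum was 363.5 to 646 CPM in KO and 657 to 778 CPM in WT at 4 weeks. As a mean of log2 CPM relative to the WT mean, the groups overlapped (-0.381, 0.101 and -0.246 in KO, against -0.206, 0.045 and 0.161 in WT). Of 10 tested at that age, 1 rose (Marco, a scavenger receptor, log2 fold change 2.63, edgeR adjusted p = 0.00325) and 3 fell, among them Clec4f of Kupffer cells (-1.32, edgeR adjusted p = 0.0155, lost without WT library 2 or 3 or KO library 3). Osteoclast markers summed to 49.7 to 65.1 CPM in KO and 99.6 to 130 CPM in WT, and Acp5 fell (log2 fold change -1.67, SE 0.22, edgeR adjusted p = 0.00494), with 0 of 3 tested higher. At 8 weeks the macrophage sum moved with Atp6v0d2: it was 923, 883.5, 741 and 847 CPM in KO libraries 1, 2, 5 and 6, 378 and 386 CPM in KO libraries 3 and 4, and 391 to 563 CPM in WT. At 20 months the liver with the most Atp6v0d2, WT library 1, also had the largest macrophage sum of the age (1490 CPM). WT library 2 had a higher mean log2 CPM of these markers than WT library 3 (0.188 against -1.002, relative to the WT mean). It had less Atp6v0d2, however (4.75 against 6.44 CPM). The part of macrophages in these differences was not tested.

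Tppp3 (ENSMUSG00000014846, GRCm38 chr8:105467493-105471526, minus strand), the microtubule-binding gene, varied most among KO livers of 4 weeks. It had 46.5, 3.82 and 10.5 CPM in KO, against 0, 0 and 0.318 CPM in WT. KO library 1 alone gave 277 of the 345 KO counts, and the mean ± SD was 20.3 ± 22.98 CPM (n = 3). The WT counts were 2 in all. At 8 weeks KO livers ran from 0.0419 to 1.99 CPM with a median of 0.624, against 0.103, 0.0991, 0.0995 and 0.436 CPM in WT. KO libraries 1, 2, 5 and 6 (1.26, 1.99, 0.650 and 0.598 CPM) were above all WT livers and KO libraries 3 and 4 (0.0419 and 0.0855 CPM) below them all, at levels of 1 or 2 counts. The log2 fold change was 2.03 (SE 0.94, edgeR adjusted p = 0.476), and 1.82 without WT library 1.

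At 20 months Tppp3 had 0.824, 0.402 and 0.340 CPM in KO, against 2.22, 0.465 and 0.111 CPM in WT. All KO values lay inside the WT range (log2 fold change -0.88, SE 0.93, edgeR adjusted p = 0.878). By mean the order was KO 4 weeks, WT 20 months, KO 8 weeks, KO 20 months, WT 8 weeks and WT 4 weeks, and KO 4 weeks stood above all others, while each later pair of neighbours overlapped. Among 14 tubulin genes, relatives of Tppp3 and other microtubule regulators tested at 4 weeks, 0 rose and 2 fell. These were Tppp itself, with 2.18 to 4.70 CPM in KO and 10.8 to 14.9 CPM in WT (log2 fold change -1.81, SE 0.32, edgeR adjusted p = 0.0133), and Stmn1, which destabilizes microtubules (-1.14, edgeR adjusted p = 0.0194). Both calls were lost without WT library 2 or 3. Tppp3 also marks ciliated cells, of whose 12 matched markers 2 could be tested at 4 weeks and neither passed. Their sum was 24.4 to 26.1 CPM in KO and 30.4 to 50.5 CPM in WT. As a mean of log2 CPM relative to the WT mean, the groups overlapped (-0.220 to -0.074 in KO, against -0.085 to 0.098 in WT). The ciliary genes Dnah5 and Tekt1 were at 0 counts in all 6 livers of 4 weeks.

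Pde6c (ENSMUSG00000024992, GRCm38 chr19:38132781-38183958, plus strand) reached the highest KO level of the 5 genes at 4 weeks. It had 39.1, 56.5 and 52.7 CPM in KO, against 1.68, 2.81 and 2.87 CPM in WT, with means of 49.5 ± 9.14 CPM in KO and 2.45 ± 0.671 CPM in WT (SD, n = 3 each). At 8 weeks KO livers ran from 0.377 to 23.4 CPM with a median of 9.45, against 0.720, 0.545, 0.696 and 0.436 CPM in WT. KO libraries 1, 2 and 6 had 16.8, 23.4 and 19.03 CPM, KO library 5 had 2.08 CPM, and KO libraries 3 and 4 had 0.377 and 0.598 CPM. Library 5 lay far below those 3, though still above every WT liver. The log2 fold change was 4.14 (SE 1.22, 95% interval 1.44 to 6.85, edgeR adjusted p = 0.474, unadjusted p = 0.00632), and 4.27 without WT library 1. DESeq2 gave the same size and called it (4.14, adjusted p = 0.0220), but not without WT library 1 (4.26, SE 1.22, adjusted p = 0.0814).

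At 20 months Pde6c was the one gene of the 5 with every KO liver above all WT livers, with 1.52, 1.39 and 2.33 CPM in KO against 0.590, 1.34 and 1.11 CPM in WT. The difference did not pass (log2 fold change 0.80, SE 0.42, 95% interval -0.19 to 1.78, edgeR adjusted p = 0.821). How many of all genes tested showed such a separation was not counted. By mean the order was KO 4 weeks, KO 8 weeks, WT 4 weeks, KO 20 months, WT 20 months and WT 8 weeks, with no overlap between the first 2 or between KO and WT of 20 months and overlap in the other neighbouring pairs. Of other PDE6 subunits, the inhibitory Pde6g and Pde6h averaged 0.692 and 0.179 CPM in KO and 0.413 and 0 CPM in WT at 4 weeks. Both were near the floor and were not tested at that age, so their levels do not decide whether they shared the pattern. The prenyl-binding subunit Pde6d did not pass (-0.80, SE 0.33, edgeR adjusted p = 0.147). Of 3 other PDE6 and phototransduction genes tested at 4 weeks 1 rose, Gnat1, the transducin subunit of rods rather than cones. It had 51.5 ± 34.9 CPM in KO and 11.8 ± 2.61 CPM in WT (log2 fold change 2.16, SE 0.48, edgeR adjusted p = 0.0278). That call ended in 4 of 6 leave-outs (each WT library and KO library 3). Of 11 phosphodiesterases of other families 0 rose and 1 fell, Pde4a (-1.75, edgeR adjusted p = 0.0243), a call that DESeq2 did not make and that was lost in 5 of 6 leave-outs (each WT library, KO library 2 and KO library 3). Photoreceptor markers summed to 1.07 to 2.69 CPM in KO and 2.42 to 3.02 CPM in WT at 4 weeks, and the photoreceptor genes Crx, Nrl and Opn1mw had 0 counts in all 22 libraries.

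Bex4 (ENSMUSG00000047844, GRCm38 chrX:136138996-136140443, plus strand) had 6.22, 13.9 and 10.9 CPM in KO livers of 4 weeks, against 1.12, 1.40 and 1.27 CPM in WT. At 8 weeks KO livers ran from 0.0427 to 10.1 CPM with a median of 3.19, against 0.240, 0.0991, 0.298 and 0.277 CPM in WT. KO libraries 1, 2, 5 and 6 (10.1, 3.003, 3.38 and 3.40 CPM) were above all WT livers. KO library 4 (0.0427 CPM) was below them all, and KO library 3 (0.126 CPM) lay within their range. The log2 fold change was 3.85 (SE 1.22, 95% interval 1.16 to 6.54, edgeR adjusted p = 0.474), and 3.89 without WT library 1. At 20 months all 6 livers were near the floor, with 0.174, 0.179 and 0.297 CPM in KO against 0.208, 0.206 and 0.333 CPM in WT. The gene was left out of the fit of that age by the filter on low counts (15 counts in KO and 16 in WT). The order by mean was KO 4 weeks, KO 8 weeks, WT 4 weeks, WT 20 months, WT 8 weeks and KO 20 months, with overlap in every neighbouring pair except WT 4 weeks and WT 20 months.

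Bex4 lies in a cluster of BEX and TCEAL genes on the X chromosome, and 3 of its neighbours were also higher in KO. Of 8 genes within 100 kb, 3 could be tested at 4 weeks, and all 3 rose in KO. Bex1 and Tceal5 had few counts in WT livers and could pass the low-count filter through KO livers alone. The count of neighbours that rose is therefore a description. Tceal5, of the TCEAL family named for a likeness to a transcription elongation factor, had 5.11 ± 2.12 CPM in KO and 0.289 ± 0.102 CPM in WT (SD, n = 3 each, log2 fold change 4.07, SE 0.56, edgeR adjusted p = 0.00575). Tceal8 had 83.6 ± 24.3 CPM in KO and 35.6 ± 5.496 CPM in WT (1.27, SE 0.26, edgeR adjusted p = 0.0214). Bex1 had 1.85, 10.9 and 13.2 CPM in KO, against 0.931, 0.351 and 0 CPM in WT (4.35, SE 0.93, edgeR adjusted p = 0.0242). The calls of Tceal8 and Bex1 were lost without WT library 2 or 3 or KO library 3 and in 1 fit of all 22 libraries. These 3 were the members that passed of 5 BEX and TCEAL genes tested besides Bex4, and Bex3 (0.50, edgeR adjusted p = 0.431) and Tceal9 (-0.02, edgeR adjusted p = 0.965) did not pass. The neighbours of the other genes showed no such run: within 100 kb, 0 of 2 tested passed for Slc4a9, 0 of 2 for Tppp3, 1 of 2 fell for Atp6v0d2 and 1 of 3 fell for Pde6c.

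**Figure D2:**
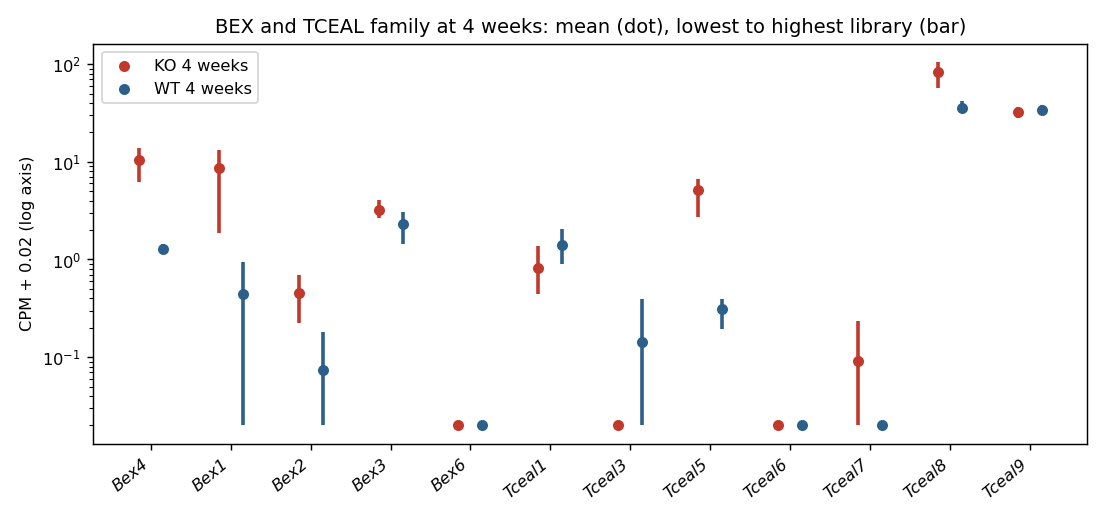
Mean level (dot) and lowest to highest library (bar) of Bex4 and 11 other BEX and TCEAL genes in KO (red) and WT (blue) livers of 4 weeks, n = 3 each, as CPM + 0.02 on a log axis. KO stands above WT for Bex4, Bex1, Tceal5, Tceal8 and, under 1 CPM, Bex2, while Tceal9 is level and Bex6 and Tceal6 were not counted at this age.

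The share of Bex4 in these counts is uncertain, since 49.8% of the 788 stretches of 50 bases in its transcript occur in other genes too, mainly Bex1. The 2 genes moved apart in single livers: KO library 1 of 4 weeks had 6.22 CPM of Bex4 and 1.85 CPM of Bex1, and KO library 5 of 8 weeks had 3.38 and 0.390 CPM. Of the other members, Tppp3 shared 0.557% of such stretches and Slc4a9, Atp6v0d2 and Pde6c none. Because 4 neighbouring genes were higher together, their start regions are shown. Bex4 was the 1 member of the 5 matched in the RefSeq promoter table (GRCm38.p6), which gives 250 bases before the transcript start and 50 after it. Its window is chrX:136138746-136139045 on the plus strand, written 5′ to 3′, with capitals for a motif described below.
Bex4: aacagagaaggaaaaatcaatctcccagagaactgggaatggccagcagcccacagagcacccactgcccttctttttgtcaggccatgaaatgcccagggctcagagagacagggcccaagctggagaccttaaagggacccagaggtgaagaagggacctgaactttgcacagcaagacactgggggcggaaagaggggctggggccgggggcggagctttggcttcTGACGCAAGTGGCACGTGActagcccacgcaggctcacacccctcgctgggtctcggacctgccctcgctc

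The windows of Bex4 and Bex1 were identical at 288 of 294 aligned bases. The capitals mark TGACGNNNNNNNCACGTGA, in which N is any base. It was read off the windows of Bex4, Bex1, Tceal5 and Tceal8 after the genes were known, so these genes hold it by construction. It was searched on both strands. It contains the E-box CACGTG, which 7.15% of all 32851 windows hold. To compare the 3 neighbours that rose, 60 bases around it are shown for each from the minus strand, at chrX:136215489-136215548 for Bex1, chrX:136203872-136203931 for Tceal5 and chrX:136172207-136172266 for Tceal8.
Bex1: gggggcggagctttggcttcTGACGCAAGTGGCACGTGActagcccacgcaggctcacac
Tceal5: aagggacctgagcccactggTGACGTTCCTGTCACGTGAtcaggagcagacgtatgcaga
Tceal8: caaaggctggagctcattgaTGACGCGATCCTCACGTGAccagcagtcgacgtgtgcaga

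The motif occurred in 12 of the 32851 windows (0.0365%), of 10 genes among 27025. Of 12 BEX and TCEAL genes with a window, 6 held it (Bex4, Bex1, Tceal3, Tceal5, Tceal6 and Tceal8). The 6 without it were Bex2, Bex3, Bex6, Tceal1, Tceal7 and Tceal9. Of these, Bex3 and Tceal9 did not pass at 4 weeks. Bex2 was not tested at that age and had 0.672, 0.201 and 0.427 CPM in KO, against 0, 0 and 0.159 CPM in WT. The 4 genes with the motif outside the family were Armcx1, Armcx6, Ubap2 and Vps33a. Tceal3 and Tceal6 carried the motif but held 0 counts in KO livers of 4 weeks, and 0 and 2 counts of Tceal6 and Tceal3 were found in WT livers. A STAT motif, TTCNNNGAA, which 8.30% of windows hold, was not among the letters of the Bex4 window, and a GC-box, GGGCGG, which 35.7% hold, occurred there at 2 places. These matches are descriptions of letters and do not show binding.

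At 8 weeks, which did not choose the genes, 0 of the 5 passed in edgeR, where 1 of 14522 genes (0.00689%) was called higher in KO, 3 were called lower (0.0207%) and 4 in either direction (0.0275%). At an unadjusted p under 0.05 stood 3 of the 5 (Atp6v0d2, Bex4 and Pde6c) and 1517 of all genes tested. DESeq2 called 1 of the 5, Pde6c, among 75 genes called higher (0.449%) and 110 in either direction (0.658%), and gave adjusted p-values of 0.0791 for Bex4, 0.216 for Atp6v0d2, 0.345 for Tppp3 and 0.452 for Slc4a9. All 5 log2 fold changes were positive, from 2.03 to 4.14, where the median over all genes tested was 0.02. Slc4a9, Tppp3 and Bex4 had few counts in most WT livers and could pass the low-count filter through KO livers alone. Their positive signs are therefore a description. Without WT library 1 edgeR adjusted p-values were 0.644 to 0.646 for the 5 genes, and 1 gene was called of 14727. Without it DESeq2 called 1 of the 5, Slc4a9 in place of Pde6c, among 42 genes called higher (0.304%) and 59 in either direction (0.427%), with adjusted p-values of 0.0814 for Pde6c, 0.224 for Bex4, 0.416 for Atp6v0d2 and 0.568 for Tppp3.

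**Figure D3:**
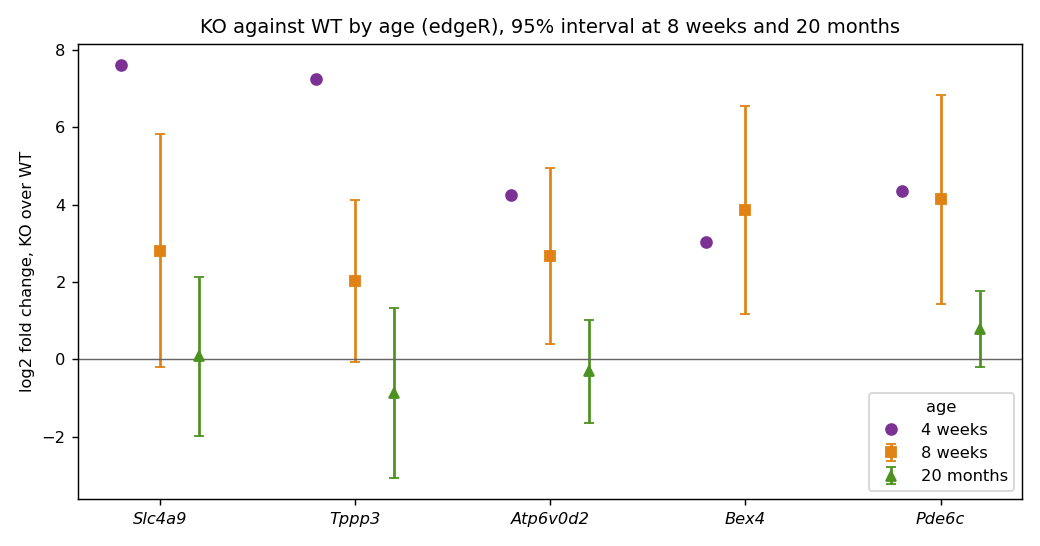
Log2 fold change of KO over WT for each gene at 4 weeks, 8 weeks and 20 months (edgeR), with 95% intervals at 8 weeks and 20 months and no interval at 4 weeks, where the contrast chose the genes. The 8-week points lie between 2.03 and 4.14 with wide bars, and the 20-month points between -0.88 and 0.80, with none for Bex4.

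The spread within the KO group at 8 weeks had the same shape in all 5 genes. KO libraries 1, 2, 5 and 6 exceeded the highest WT liver in every gene, and KO libraries 3 and 4 in none. The share of all genes tested with such a split was not counted, so it is not shown to be particular to the 5. Slc10a1 was low in libraries 3 and 4 too (71.2 and 77.4 CPM), so these livers carried the KO mark of their labels. The same 2 livers differed from the other 4 in genes known to differ between the sexes in mouse liver. The mean log2 CPM of 33 female-biased genes, relative to the WT mean, was 3.77, 3.80, 3.55 and 3.81 in KO libraries 1, 2, 5 and 6, but -0.30 and -0.34 in KO libraries 3 and 4, against -0.34 to 0.43 in WT. For 28 male-biased genes it was -5.19, -5.12, -4.66 and -5.49 in KO libraries 1, 2, 5 and 6, but 0.62 and 0.60 in KO libraries 3 and 4, against -0.23 to 0.26 in WT. A single gene showed it as plainly: Mup20, a urinary protein of male liver, had 4.11 to 69.0 CPM in KO libraries 1, 2, 5 and 6 and 3381 and 3576 CPM in KO libraries 3 and 4, against 1023 to 2269 CPM in WT.

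**Figure D4:**
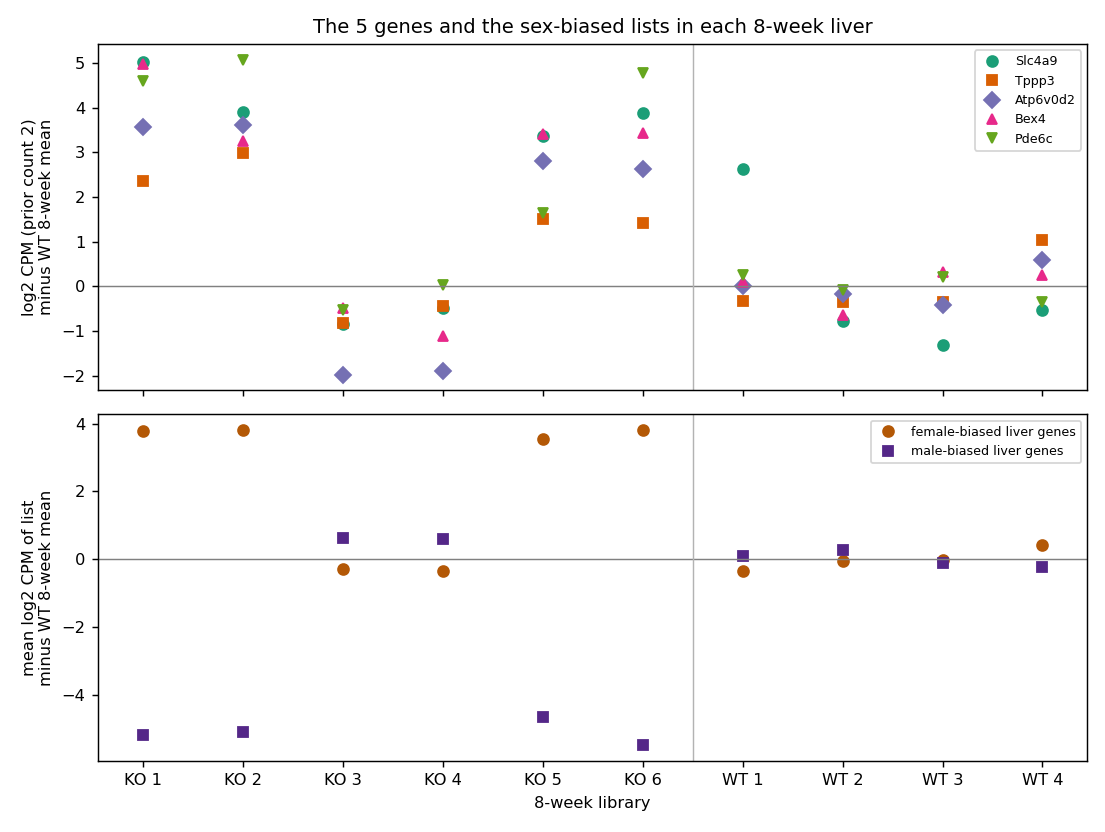
Each 8-week liver, 6 KO at left and 4 WT at right. The upper panel gives log2 CPM of the 5 genes minus the WT mean of the age, and the lower panel the same for the mean of the female-biased and male-biased lists: KO libraries 3 and 4 lie at or below WT in the upper panel and beside WT in the lower one.

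The scores of the sex-biased lists showed the same direction at 4 weeks, where the 5 genes were high in all 3 KO livers. Female-biased scores were 0.99, 2.22 and 2.24 in KO, against -0.28 to 0.22 in WT, and male-biased scores were -3.28, -4.05 and -3.73 in KO, against -0.31 to 0.26 in WT. As sums, in which abundant genes weigh more, the female-biased list overlapped (5815 to 12810 CPM in KO and 6758 to 14890 CPM in WT). The male-biased sums did not (10040 to 11120 CPM in KO and 25850 to 33700 CPM in WT). Of 22 female-biased genes tested 10 rose and 1 fell, among those that rose Sult1e1, the estrogen sulfotransferase (log2 fold change 8.89, edgeR adjusted p = 2.58e-04). Of 27 male-biased genes 0 rose and 19 fell, among them Mup20 (-6.08, edgeR adjusted p = 1.20e-04) and Elovl3, a fatty acid elongase (-8.23, edgeR adjusted p = 1.50e-04). Without 1 library the counts were 3 to 13 female-biased genes higher (3 without WT library 3, 5 without WT library 2) and 15 to 23 male-biased genes lower, and in 1 fit of all 22 libraries they were 5 and 3, Mup20 and Elovl3 not among them. At 20 months, where 4 of the 5 genes overlapped between the groups, the scores overlapped too: 0.25, 0.09 and 0.69 in KO against 0.40, -0.85 and 0.45 in WT for female-biased genes, and 0.24, 0.51 and -0.14 in KO against -1.23, 0.95 and 0.29 in WT for male-biased genes. In edgeR no gene of either list passed at 8 weeks or 20 months, while DESeq2 called 14 of 29 female-biased genes higher at 8 weeks, and 12 of 28 without WT library 1. The part of sex-biased expression in the levels of the 5 genes was not tested.

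Other marker sums differed along the same line among the KO livers of 8 weeks. Hepatocyte markers summed to 214800, 198200, 175700 and 161300 CPM in KO libraries 1, 2, 5 and 6 and to 100900 and 87380 CPM in KO libraries 3 and 4, against 92960 to 106100 CPM in WT. As a mean of log2 CPM, in which abundant genes weigh less, the hepatocyte list stood at 11.91, 11.80, 11.63 and 11.52 in the first 4 and at 11.38 and 11.28 in KO libraries 3 and 4, against 11.39 to 11.62 in WT, so that library 6 lay within the WT range. Stellate cell and fibroblast markers summed to 1157, 938, 955 and 900 CPM in KO libraries 1, 2, 5 and 6 and to 465 and 624 CPM in KO libraries 3 and 4, against 518.5 to 704 CPM in WT. Sinusoidal endothelial markers summed to 685 to 923 CPM in the first 4 and to 587 and 597 CPM in KO libraries 3 and 4, against 588 to 651.5 CPM in WT. All 14 stellate and all 12 endothelial markers were counted in each of these livers. None of the 14 hepatocyte, 13 stellate and 12 endothelial markers tested passed at 8 weeks, and at 4 weeks 1 rose and 2 fell of 12 stellate markers and 0 rose and 3 fell of 12 endothelial ones. Of the remaining marker lists at 4 weeks, 0 of 2 cholangiocyte and 0 of 4 mesothelial markers passed, 1 of 2 neuron and Schwann cell markers fell (Syt1, -2.16), and 1 of 14 hepatocyte markers rose (Cps1, 1.25, edgeR adjusted p = 0.0345, a call that held without KO library 1 alone among the 6 leave-outs). No intercalated cell marker and 1 photoreceptor marker could be tested, which did not pass. Among 23 targets of the receptors CAR and PXR 6 rose and 1 fell at 4 weeks, and 1 of 25 rose at 8 weeks, Tymp (1.99, SE 0.23, edgeR adjusted p = 0.0157, lost without WT library 1, 2 or 3 or KO library 5 or 6). Without WT library 3 of 4 weeks the 6 of that age became 1. Their mean log2 CPM at 8 weeks, relative to the WT mean, was 1.66, 1.04, 0.63 and 1.10 in KO libraries 1, 2, 5 and 6 and -0.14 and 0.24 in KO libraries 3 and 4, against -0.11 to 0.07 in WT. Among 7 oncofetal and tumour genes tested at 4 weeks 2 rose, Tff3 (3.26, lost without WT library 2 or KO library 3) and Gpc3 (1.32, lost without WT library 2 or 3 or KO library 3). At 8 weeks that list's score was 1.60, 1.37, 0.62 and 0.87 in KO libraries 1, 2, 5 and 6 and -0.43 and -0.19 in KO libraries 3 and 4. In WT it was 0.68 in library 1, the liver with kidney transcripts, and -0.32 to -0.14 in the others. The part of these cells in the levels of the 5 genes was not tested.

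At 20 months 4 of the 5 genes could be tested and 0 passed, as in edgeR 0 of 13966 genes (0%) did in either direction, with 772 genes and none of the 4 at an unadjusted p under 0.05. DESeq2 called 7 genes higher (0.0477%) and 49 in either direction (0.334%), none of the 5. Whether the KO effect differed between 20 months and 8 weeks was tested in 1 fit of all 22 libraries, in which 0 of 15877 genes (0%) passed and 1798 had an unadjusted p under 0.05. The difference, 20 months minus 8 weeks on the log2 scale, was -4.00 for Bex4 (SE 1.56, unadjusted p = 0.0181, edgeR adjusted p = 0.345), -3.31 for Pde6c (SE 1.35, edgeR adjusted p = 0.363), -2.95 for Atp6v0d2 (SE 1.21, edgeR adjusted p = 0.363), -2.89 for Tppp3 (SE 1.45, edgeR adjusted p = 0.457) and -2.75 for Slc4a9 (SE 1.69, edgeR adjusted p = 0.563). None passed, so the KO effects of the 2 ages are not shown to differ. Without WT library 1 of 8 weeks, the liver with kidney transcripts, the difference for Slc4a9 was -5.88 and was not called either.

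The 5 genes also varied together from liver to liver. With the mean of each of the 6 groups taken out, Pearson's r over the 22 libraries ran from 0.464 (Tppp3 and Bex4) to 0.889 (Atp6v0d2 and Bex4), and Spearman's rho from 0.183 to 0.742. These values share libraries and depth, and the 6 KO livers of 8 weeks hold much of the variance. Among 13450 genes, those most like Atp6v0d2 by this measure included Slc22a26 (0.945) and Mroh9 (0.938), and those most like Bex4 were Mroh9 (0.952), Slc22a27 (0.928) and Cyp2a4 (0.919). Pde6c ran with Sox11 (0.905), Cavin2 (0.886) and Cyp2c39 (0.882), and Slc4a9 with Marco (0.901), Defb1 (0.900) and Gspt2 (0.892). Tppp3 ran with Tagln2 (0.920), Pdp1 (0.914) and Hbegf (0.876). Spearman's rho of these pairs was 0.825 to 0.896 for Slc4a9, 0.822 to 0.911 for Tppp3, 0.735 and 0.747 for Atp6v0d2 and 0.73 to 0.889 for Bex4, but 0.388 (Cyp2c39) to 0.602 (Sox11) for Pde6c.

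Written as numbers, the 4-week pattern (a mean under 2 CPM in WT, at least 5 CPM in KO and no overlap) was met by 59 genes. It held 4 of the 5, with Atp6v0d2 just inside at a WT mean of 1.81 CPM and Pde6c just outside at 2.45 CPM. By KO level at 4 weeks the first were Sult2a1, Sult2a2, Bmper, Sult2a6, Atp6v0d2, Hamp2, Btc and Slc22a27, and Sult2a copies share reads. The 3 KO livers of 4 weeks were not alike in these genes. Sult2a1 had 8.40, 1108 and 1752 CPM in KO libraries 1 to 3, and library 1 had the highest Slc4a9 and Tppp3 and the lowest Bex4 and Pde6c of the 3. Of the 59, 54 could be tested at 8 weeks and 44 at 20 months, and 0 passed at either age. Log2 fold changes were positive for 52 of the 54 at 8 weeks (median 1.43) and for 13 of the 44 at 20 months (median -0.30). These counts are descriptions, since a gene can pass the filter through the KO livers alone.

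**Figure D5:**
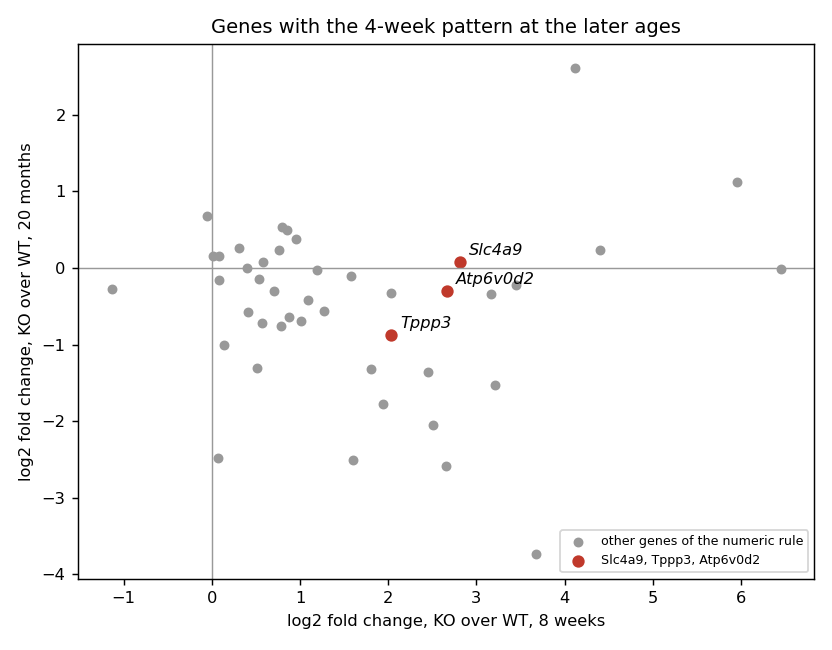
Log2 fold change of KO over WT at 8 weeks (horizontal) and 20 months (vertical) for the 44 genes of the numeric 4-week pattern tested at both later ages. Slc4a9, Tppp3 and Atp6v0d2 (red) lie at 2.81, 2.03 and 2.67 on the horizontal axis and at 0.08, -0.88 and -0.30 on the vertical one.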

How the data were processed

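The authors deposited 1 table of unnormalized counts of reads in Ensembl genes for each liver. The submitters' processing notes name HISAT2 2.0.4, a read aligner, HTSeq 0.6.1p1, a read counter, and the build GRCm38. The annotation release and the strand setting are not given in the sources used here. Multiply aligned reads were recorded as 0 in all 22 tables, so genes with near-identical copies may be miscounted. Symbols and coordinates came from GENCODE M21 (GRCm38) for 47310 of 47729 identifiers. Summary lines stayed out of library sizes.

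From the counts, KO was set against WT separately at each age in R 4.3.3 with edgeR 4.0.16 (filterByExpr, TMM scaling, 2-sided quasi-likelihood F-test, Benjamini-Hochberg adjusted p under 0.05 over all genes tested). DESeq2 1.42.0 was the other tool. The SE is the log2 fold change divided by the square root of F. CPM used TMM factors of all 22 libraries, and list scores averaged log2 CPM with a prior count of 2. A count of 0 allows up to 3 counts, or 0.103 to 0.640 CPM per library. Libraries of 1 group differed by a chi-square per degree of freedom of at least 8.34, so none was a duplicate. The fits were tested on simulated data.

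The 5 genes and the 21 gene lists (2 symbols not matched, Pde2a and Dnai1) were chosen with earlier results of these data known. Named genes are the 5, up to 3 per list and age with the smallest adjusted p, the 3 most alike per gene, and the 8 most abundant of the numeric 4-week pattern. One gene that this rule names is not reported here. Comparison genes named beside a member (Atp6v0d1, Pde6d, Pde6g, Pde6h, Bex3, Tceal9, Ddx3y, Xist, single markers and neighbours) and the 7 kidney genes were chosen after values were seen. Alternatives covered size factors, the tool, the filter, the libraries in the fit, a replicate block, leaving out each library and, chosen after seeing the data, DESeq2 without WT library 1 of 8 weeks.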

Additional observations from a re-analysis of the deposited data

Results flagged for a closer look

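Dixon's test was run on 6 genes (the 5 and Slc10a1) in the 2 groups with 4 or more livers, KO and WT of 8 weeks, which makes 12 checks. In 3 of them 1 liver lay far from the rest, where chance gives about 1 in 20 for independent checks, and these share livers. Bex4 reached 10.14 CPM in KO library 1 of 8 weeks, where the next KO liver had 3.40 CPM. Slc4a9 stood at 1.576 CPM in WT library 1 of 8 weeks, the liver with kidney transcripts, against at most 0.0792 CPM in the other WT livers of that age. Tppp3 had 0.4357 CPM in WT library 4 of 8 weeks, against at most 0.103 CPM in the other 3 WT livers.

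Every KO liver had more Tppp3 than the WT mean at 4 weeks and less than the WT mean at 20 months, where the log2 fold change was -0.8758. The WT mean at 20 months (0.932 CPM) was set by WT library 1 (2.22 CPM), and the difference between the 2 ages was not tested.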

How the results depend on the processing

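No member was called at 8 weeks or 20 months by edgeR under any alternative, leave-outs included (0 to 0 of 5), and DESeq2 called 1 at 8 weeks, Pde6c, or 1, Slc4a9, without WT library 1, an alternative chosen after seeing the data. The number of all genes called moved more. At 4 weeks it was 1200, against 2048 with no filter on low counts, 537 with the replicate block and 184 to 2012 when 1 library was left out (lowest without WT library 3, highest without KO library 1). At 8 weeks it was 4, against 110 by DESeq2, 59 by DESeq2 without WT library 1, 0 with the replicate block and 1 to 5 without 1 library. At 20 months it was 0, against 49 by DESeq2 and 0 to 71 without 1 library (71 without WT library 3). The numeric 4-week pattern held 59 genes, against 30 with a WT ceiling of 1 CPM and 27 with a KO floor of 10 CPM. The labels give replicate numbers but no pairing of livers. Correlations of KO and WT livers with the same number ran from -0.327 to 0.458, and were 0.436, 0.031 and 0.458 at 20 months. Livers with different numbers were not set beside them, so whether the block reflects a pairing was not tested.

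At 20 months the log2 fold change changed sign for Atp6v0d2 without WT library 1 (0.40) or KO library 2 (0.01), and for Slc4a9 without WT library 2 (-0.20), WT library 3 (-0.41) or KO library 1 (-0.24), with leave-outs from -0.83 to 0.40 and from -0.41 to 1.73 in all. The cause was not tested. The 4-week log2 fold changes of Slc4a9 (7.62) and Tppp3 (7.25) became 9.44 without WT library 1 and 9.78 without WT library 3, which held their only WT counts, so they depend on the prior count. The difference of KO effects between 20 months and 8 weeks stayed negative in all 16 leave-outs, from -5.88 to -1.09 for Slc4a9, -3.74 to -1.17 for Tppp3, -3.48 to -2.26 for Atp6v0d2, -4.29 to -3.27 for Bex4 and -3.61 to -2.90 for Pde6c, and was not called in any. In 1 fit of all 22 libraries the 4-week calls of Car5a, Tppp, Stmn1, Bex1, Tceal8, Marco, Mup20, Elovl3, Tff3 and Gpc3 were lost, and the cause was not tested. Bex4 passed the filter at 8 weeks in 6 of 10 leave-outs. Depth limits Tppp3, Slc4a9 and Bex4, which had few counts in most WT livers.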
